A study of Mus musculus with 9 samples.

Results

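The 10 genes described here encode the mouse machinery that loads peptides onto major histocompatibility complex (MHC) class II molecules: the classical chains H2-Aa, H2-Ab1 and H2-Eb1, the invariant chain Cd74, the peptide editors H2-DMa, H2-DMb1, H2-DMb2, H2-Oa and H2-Ob, and the transactivator Ciita. They were taken by gene name from a list of class II presentation genes. All 10 were on the array and all 10 passed the filter on dim probes, out of 37325 named genes on the array and 29410 genes tested. MHC class II molecules are heterodimers of an alpha and a beta chain that show peptides from endocytosed proteins to CD4 T cells. The invariant chain fills their groove until lysosomal proteases degrade it, the H2-DM dimer then exchanges its last fragment for peptide, and the H2-O dimer restrains H2-DM. B cells, dendritic cells and macrophages are the best known class II-bearing cells, and Ciita is the coactivator on which transcription of most of these genes depends.

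Mature megakaryocytes (mMKs), the large bone marrow cells that shed platelets, were isolated from male mice, and RNA was hybridized to 1-colour Agilent arrays to ask how gene expression in these cells responds to ionizing radiation (IR). The Ctrl group was sham-irradiated, and the other groups received a single total body dose of 5 Gy γ-rays and were sampled at 1 or 3 days post IR (dpi). Each group holds 3 arrays, and the design text states independent experiments with different donors. The methods name C57BL/6 as the wild-type strain and describe serial magnetic enrichment for CD41 and then CD42d, while an age for the array mice, and whether marrow of several mice was pooled, are not given in the sources used here. A level below is the log2 intensity of a gene's brightest probe minus the 75th percentile of log2 intensity on the same array, so that 0 marks that percentile and a difference of 1 is 2-fold. Levels of different genes come from different probes and cannot be ranked against each other. A gene was called when limma gave a Benjamini-Hochberg adjusted p under 0.05 over all genes and the difference was at least 2-fold.

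The arrays were unequal in signal. The 75th percentile of log2 intensity was 10.03, 10.62 and 10.66 on the Ctrl arrays. It was 9.33, 9.45 and 9.43 at 1 dpi, and 10.37, 10.55 and 10.53 at 3 dpi. Every 1 dpi array was thus dimmer than every other array, so low signal and that group cannot be told apart. On Ctrl replicate 1, which lay alone on its slide, 69.1% of spots were well above background. The other Ctrl arrays had 79.5% and 80.8%, the 1 dpi arrays 72.3%, 74.8% and 75.6%, and the 3 dpi arrays 81.8%, 81.6% and 81.8%, and these 8 arrays shared the other slide. The labelled cell type was looked at with 13 megakaryocyte markers, all well above background on all 9 arrays. So were all 14 macrophage and monocyte, all 8 T and NK cell and all 6 endothelial markers listed for comparison. Detection therefore does not tell these cell types apart. In units where the 75th percentile of an array is 1, the megakaryocyte levels summed to 131, 118 and 116 on the Ctrl arrays. The sums were 131, 120 and 118 at 1 dpi and 138, 136 and 135 at 3 dpi. The largest term of this sum is Pf4 (platelet factor 4), and since each term depends on its probe, naming the largest term of a sum here and below ranks no genes. By limma, 0 of the 13 were called in any comparison, and at an unadjusted p under 0.05 there were 3 higher and 4 lower at 1 dpi against Ctrl, 5 higher and 0 lower at 3 dpi against Ctrl, and 8 higher and 1 lower at 3 dpi against 1 dpi. With scaling to the array median, 1 was called lower at 1 dpi and 2 higher at 3 dpi against 1 dpi, and the deposited log2 table had 1 lower at 3 dpi against Ctrl. Their median at 1 dpi was -0.01, but -0.29 with quantile normalization and -0.35 with scaling to the array median.

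At 1 dpi, 5 of the 10 class II genes fell by at least 2-fold against Ctrl (H2-Aa, H2-Eb1, Cd74, Ciita and H2-DMb2), where 2.87% of all genes tested were called lower. At 3 dpi against Ctrl, 2 of 10 fell (H2-DMb2 and H2-Ob), where 1.82% of all genes were called lower. Between the time points, 1 of 10 rose from 1 to 3 dpi (Ciita), where 3.97% of all genes were called higher. Both comparisons against Ctrl use the same 3 Ctrl arrays, so their values are given side by side and are not independent.

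No class II gene was called in the other directions. By limma, 0 of 10 were higher at 1 dpi against Ctrl, where 12.3% of all genes were called higher, and 0 of 10 had a higher level with an unadjusted p under 0.05. For 3 dpi against Ctrl the count was also 0 of 10, where 6.98% of all genes were called higher, with 0 at an unadjusted p under 0.05. For 3 dpi against 1 dpi, 0 of 10 were called lower, where 4.82% of all genes were, and 3 of 10 (H2-DMa, H2-Oa and H2-Ob) were lower at an unadjusted p under 0.05. In these directions the methods' t-test at an unadjusted p under 0.05 gave 2, 0 and 3, and after Benjamini-Hochberg 1 (H2-DMb1), 0 and 3, without a minimum fold. The median log2 fold change of the 10 genes was -0.90 at 1 dpi against Ctrl, -0.42 at 3 dpi against Ctrl and 0.21 at 3 dpi against 1 dpi.

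All genes tested had medians of 0.25, 0.11 and -0.11 in the same order. Relative to those medians, the 5 genes called at 1 dpi lay between -1.56 (H2-Aa) and -1.26 (H2-Eb1), H2-DMb2 and H2-Ob lay at -1.60 and -1.13 at 3 dpi, and Ciita at 1.24 between the time points. Of all genes called at 1 dpi against Ctrl, 81.1% were higher, but 56.3% with quantile normalization, 45.0% with scaling to the array median and 49.8% in the deposited log2 table. For 3 dpi against Ctrl the higher share was 79.4%, but 66.8% in that table. For 3 dpi against 1 dpi the higher share was 45.2%, but 62.9%, 68.2% and 33.2% with quantile normalization, scaling to the array median and normexp background correction, and 62.6% in the table. The whole-array balance of higher and lower therefore rests on the scaling, and the direction of each class II gene was read under every scaling.

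**Figure D1:**
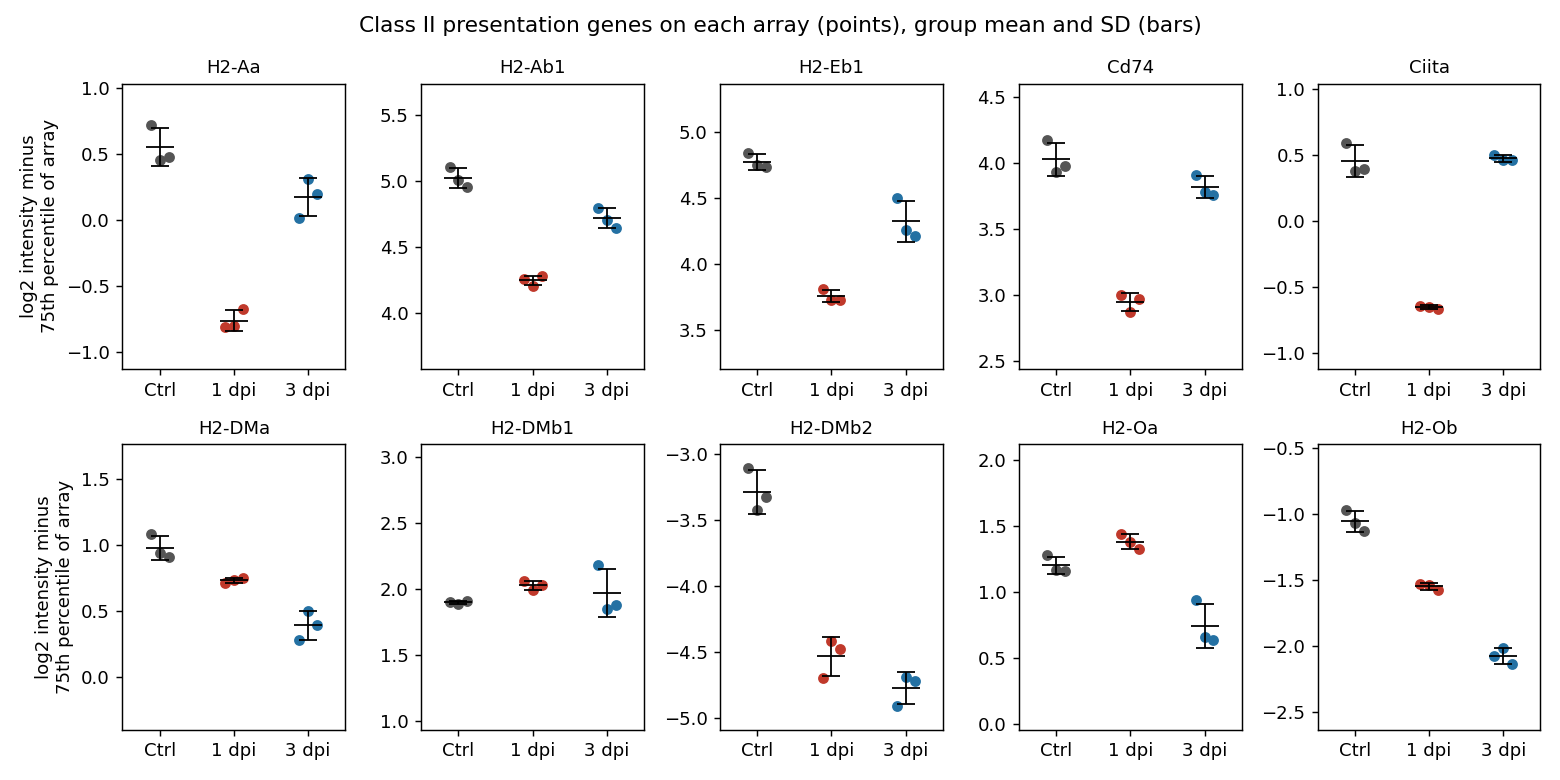
Level of each of the 10 class II genes on each array (points; log2 intensity minus the 75th percentile of the array), with the mean and SD of the 3 arrays of a group as bars; each panel has its own axis of the same length. H2-Aa, H2-Ab1, H2-Eb1, Cd74 and Ciita have their 1 dpi arrays lowest, while H2-Ob has its 3 dpi arrays lowest.

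Of the 10 genes, 7 matched RefSeq promoter windows (GRCm38.p6), with 8 windows of 300 bases between them, running from 250 bases before to 50 bases after the start of the gene. Promoters of class II genes are known for a conserved X box and Y box at which Ciita is recruited through DNA-bound factors. Upstream stretches of 120 bases are shown for 6 genes so that chain and editor genes with unlike time courses can be compared. Capitals mark matches, on either strand, to the Y box core CCAAT (whose reverse complement is ATTGG), to its longer form CTGATTGG, which contains ATTGG, or to the X box pattern AGNNACNGA.
H2-Aa: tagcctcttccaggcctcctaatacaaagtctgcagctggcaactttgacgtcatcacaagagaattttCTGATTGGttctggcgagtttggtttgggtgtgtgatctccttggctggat
H2-Eb1: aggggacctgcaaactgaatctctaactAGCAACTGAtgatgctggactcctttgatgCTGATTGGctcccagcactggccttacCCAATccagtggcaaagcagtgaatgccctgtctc
H2-Oa: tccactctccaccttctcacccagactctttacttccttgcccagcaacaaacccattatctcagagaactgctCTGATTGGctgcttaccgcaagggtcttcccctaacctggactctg
H2-Ob: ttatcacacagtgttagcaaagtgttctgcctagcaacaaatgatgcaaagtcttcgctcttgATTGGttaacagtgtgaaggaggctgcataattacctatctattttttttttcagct
H2-DMb1: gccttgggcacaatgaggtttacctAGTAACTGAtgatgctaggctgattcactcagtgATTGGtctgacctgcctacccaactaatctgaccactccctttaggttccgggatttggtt
H2-DMb2: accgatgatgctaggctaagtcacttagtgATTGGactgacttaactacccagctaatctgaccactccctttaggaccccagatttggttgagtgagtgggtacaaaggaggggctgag

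These stretches lie at chr17:34287824-34287943 on the minus strand (H2-Aa) and, on the plus strand, at chr17:34305747-34305866 (H2-Eb1), chr17:34092259-34092378 (H2-Oa), chr17:34238785-34238904 (H2-Ob), chr17:34153071-34153190 (H2-DMb1) and chr17:34145129-34145248 (H2-DMb2). CCAAT matched in 7 of the 8 windows, against 37.4% of all 32851 promoter windows of 27025 genes. The longer CTGATTGG matched in 3 of 8 (H2-Aa, H2-Eb1 and H2-Oa), against 4.1% of all windows. AGNNACNGA matched in 4 of 8 (H2-Eb1, H2-DMb1, H2-Oa and H2-Ob), against 17.7%. In H2-Ob its only match lies after the start. In H2-Oa its matches wholly before the start lie outside the stretch printed. The interferon-response pattern TTCNNNGAA matched in 1 of 8 (H2-DMb2, outside the stretch printed), against 8.3%. The match to CTGATTGG ended 44 bases before the start in H2-Aa, 55 in H2-Eb1 and 39 in H2-Oa. A match is a run of letters and no evidence of binding. H2-Ab1, Ciita and Cd74 had no entry. On the array's own build (mm9), probes of 8 of the 10 genes lie on chromosome 17 between 34232033 and 34453134, those of Ciita on chromosome 16 and that of Cd74 on chromosome 18.

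The classical chains had their lowest levels at 1 dpi. H2-Aa encodes the I-A alpha chain. Its level was 0.72, 0.46 and 0.48 on the Ctrl arrays, -0.81, -0.80 and -0.67 at 1 dpi, and 0.02, 0.31 and 0.20 at 3 dpi. The groups did not overlap, and the 3 dpi arrays lay between the others. H2-Aa fell by 1.31 at 1 dpi (SE 0.10, 95% CI -1.55 to -1.07, limma adjusted p = 4.7e-05), to 40.3% of Ctrl. At 3 dpi its log2 fold change against Ctrl was -0.38 (adjusted p = 0.026), less than 2-fold. From 1 to 3 dpi the log2 fold change was 0.93 (SE 0.10, adjusted p = 0.00035), just short of 2-fold, and it was 1.01 and called without 3 dpi replicate 1. H2-Aa has 1 probe on the array. In these bulk samples, fewer class II-bearing cells and less class II RNA per cell cannot be told apart.

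H2-Ab1, the I-A beta chain that pairs with H2-Aa, had levels of 5.11, 5.01 and 4.96 on the Ctrl arrays, 4.26, 4.21 and 4.28 at 1 dpi, and 4.80, 4.71 and 4.65 at 3 dpi. Again every 1 dpi array lay below every 3 dpi array and every 3 dpi array below every Ctrl array. The log2 fold change at 1 dpi was -0.78 (SE 0.07, 95% CI -0.93 to -0.62, limma adjusted p = 7.6e-05), which is 58.4% of Ctrl and less than 2-fold. At 3 dpi it was -0.31 against Ctrl (adjusted p = 0.01) and 0.47 against 1 dpi (adjusted p = 0.0012). H2-Ab1 has 4 probes, and they gave -1.04 to -0.71 at 1 dpi against Ctrl, -0.42 to -0.30 at 3 dpi against Ctrl and 0.41 to 0.61 between the time points, so that they shared their directions. The lowest of them (A_55_P2741874, -1.04) was called at 1 dpi, with levels of 1.77, 1.56 and 1.51 on the Ctrl arrays and 0.60, 0.57 and 0.57 at 1 dpi. The gene passed 2-fold at 1 dpi with quantile normalization (-1.01), with scaling to the array median (-1.12) and relative to the median of all genes (-1.02).

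H2-Eb1, the I-E beta chain, stood at 4.84, 4.75 and 4.73 on the Ctrl arrays, 3.81, 3.73 and 3.73 at 1 dpi, and 4.50, 4.26 and 4.21 at 3 dpi. No groups overlapped here either, and the spread was widest at 3 dpi, where replicate 1 was the highest array. H2-Eb1 fell by 1.01 at 1 dpi (SE 0.09, 95% CI -1.22 to -0.81, limma adjusted p = 7.1e-05), to 49.5% of Ctrl. That is just past 2-fold, and the call was lost without Ctrl replicate 1 (-0.98) and without 1 dpi replicate 2 (-1.0). At 3 dpi the log2 fold change was -0.45 against Ctrl (adjusted p = 0.0055) and 0.56 against 1 dpi (adjusted p = 0.0016), both under 2-fold. H2-Ea, the partner chain of H2-Eb1, which the array lists as the pseudogene H2-Ea-ps, was well above background on 0 arrays.

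Cd74 encodes the invariant chain, the chaperone of newly made class II dimers. It stood at 4.17, 3.93 and 3.98 on the Ctrl arrays, 3.00, 2.87 and 2.97 at 1 dpi, and 3.91, 3.78 and 3.76 at 3 dpi. The 1 dpi arrays were well below the rest, whereas the highest 3 dpi array came within 0.02 of the lowest Ctrl array. Cd74 fell by 1.07 at 1 dpi (SE 0.08, 95% CI -1.27 to -0.88, limma adjusted p = 4.7e-05), to 47.5% of Ctrl. At 3 dpi its log2 fold change against Ctrl was -0.21 (95% CI -0.40 to -0.01, adjusted p = 0.1), short of the threshold on p and under 2-fold. This depended on the scaling, with -0.31 under quantile normalization (adjusted p = 0.013), -0.31 in the deposited log2 table (adjusted p = 0.019) and -0.32 relative to the median of all genes (adjusted p = 0.021), but -0.35 when scaled to the array median (adjusted p = 0.15) and -0.13 without Ctrl replicate 1 (adjusted p = 0.19). Against 1 dpi it was 0.87 (SE 0.08, adjusted p = 0.00021), short of 2-fold, and 1.07 with scaling to the array median.

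The peptide editors followed other time courses. H2-DMa, the alpha chain of H2-DM, had levels of 1.08, 0.94 and 0.91 on the Ctrl arrays, 0.71, 0.73 and 0.75 at 1 dpi, and 0.28, 0.50 and 0.39 at 3 dpi. The order was Ctrl, 1 dpi, 3 dpi from high to low with no overlap, unlike the order of the classical chains. Its log2 fold changes were -0.25 at 1 dpi (adjusted p = 0.027), -0.59 at 3 dpi (adjusted p = 0.00082) and -0.34 between the time points (adjusted p = 0.009), none reaching 2-fold. With scaling to the array median the first was -0.59 and the last -0.14. H2-DMb1, a beta chain of H2-DM, had levels of 1.90, 1.89 and 1.91 on the Ctrl arrays, 2.06, 1.99 and 2.03 at 1 dpi, and 2.18, 1.85 and 1.88 at 3 dpi. The 3 dpi arrays spanned both other groups. Its log2 fold changes of 0.13, 0.08 and -0.05 had adjusted p of 0.25, 0.55 and 0.66, with 95% CIs of -0.08 to 0.34, -0.14 to 0.29 and -0.27 to 0.16. These small values changed sign with the scaling, to -0.22, -0.07 and 0.15 when scaled to the array median, and the deposited log2 table, on a probe not above background, gave -0.87 at 1 dpi.

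H2-DMb2, the other H2-DM beta chain, is read by 1 dim probe that was well above background on all 9 arrays. Its level was -3.11, -3.43 and -3.33 on the Ctrl arrays, -4.70, -4.42 and -4.48 at 1 dpi, and -4.91, -4.69 and -4.72 at 3 dpi. All 6 irradiated arrays lay below all Ctrl arrays, and the 1 and 3 dpi arrays overlapped. H2-DMb2 fell by 1.24 at 1 dpi (SE 0.12, 95% CI -1.51 to -0.97, limma adjusted p = 0.00011). It fell by 1.49 at 3 dpi (SE 0.12, 95% CI -1.76 to -1.22, limma adjusted p = 4.9e-05), to 35.7% of Ctrl. With normexp background correction the same differences were -0.26 and -0.88, and neither was called. Between the time points the log2 fold change was -0.25 (adjusted p = 0.12), with -0.02 under quantile normalization and -0.62 under normexp.

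H2-Oa and H2-Ob encode the chains of the H2-O dimer. H2-Oa, the alpha chain, had levels of 1.28, 1.17 and 1.16 on the Ctrl arrays, 1.44, 1.38 and 1.33 at 1 dpi, and 0.94, 0.66 and 0.64 at 3 dpi. Its arrays were highest at 1 dpi and lowest at 3 dpi, with no overlap. The log2 fold change was 0.18 at 1 dpi (adjusted p = 0.13), -0.46 at 3 dpi (adjusted p = 0.0067) and -0.64 between the time points (SE 0.09, adjusted p = 0.0012), with none past 2-fold. The 1 dpi value turned to -0.17 with scaling to the array median.

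For H2-Ob, the beta chain, the levels were -0.97, -1.07 and -1.13 on the Ctrl arrays, -1.53, -1.54 and -1.58 at 1 dpi, and -2.08, -2.02 and -2.14 at 3 dpi. The groups were fully apart in the order Ctrl, 1 dpi, 3 dpi from high to low. H2-Ob fell by 1.02 at 3 dpi (SE 0.07, 95% CI -1.17 to -0.87, limma adjusted p = 1.8e-05), to 49.3% of Ctrl. At 1 dpi the log2 fold change was -0.49 (adjusted p = 0.00058), and from 1 to 3 dpi it was -0.53 (adjusted p = 0.00063), values that became -0.84 and -0.33 with scaling to the array median. A second probe (A_51_P254625) had levels of -3.40, -3.49 and -3.40 on the Ctrl arrays, -3.86, -3.94 and -3.81 at 1 dpi, and -4.81, -4.72 and -4.66 at 3 dpi. It showed the same order of groups and was called at 3 dpi against Ctrl (-1.30, SE 0.07, limma adjusted p = 6.9e-06 over all probes). This second probe is dim, however, with intensities of 44.2 to 58.8 on the irradiated arrays. The dim H2-DMb2 probe had 24.7 to 58.1 there. The call on the brightest probe sat at the edge of 2-fold and was lost with quantile normalization (-1.0), with normexp (-0.90), in the deposited log2 table (-1.18 on a probe not above background, adjusted p = 0.088), without Ctrl replicate 1 (-0.97) and without 3 dpi replicate 3 (-0.99).

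**Figure D2:**
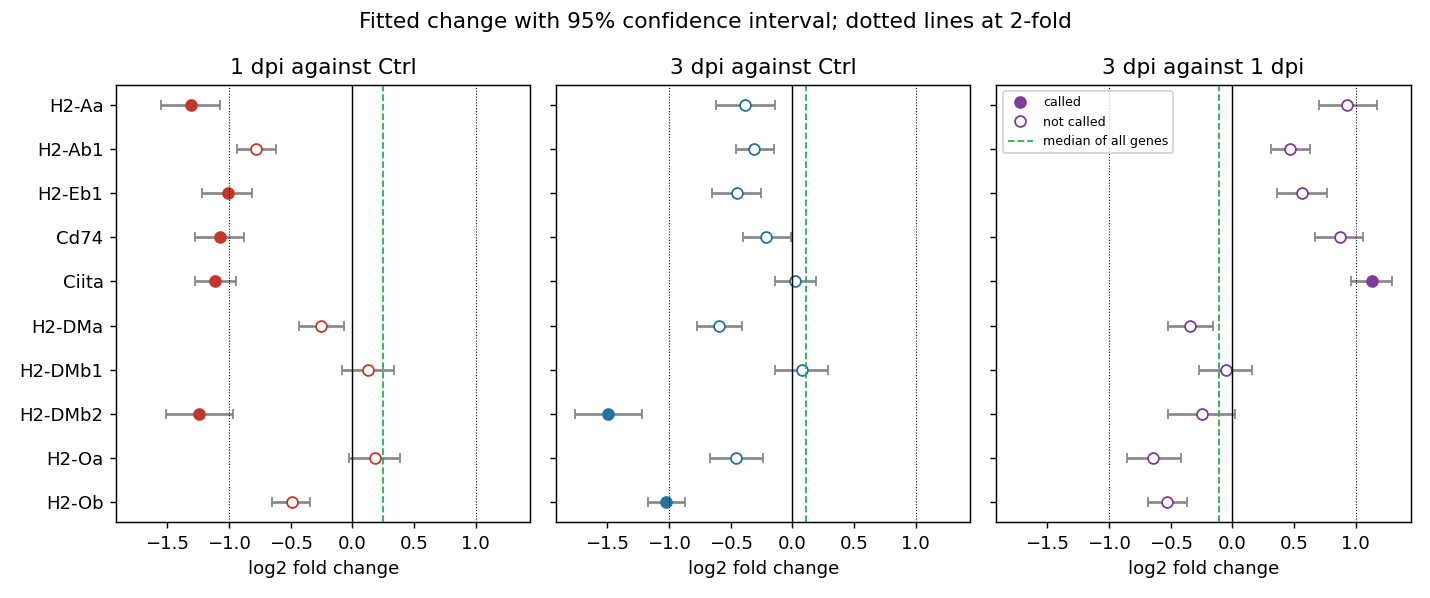
Log2 fold change of each class II gene in the 3 comparisons, with 95% confidence intervals from limma; filled points were called, open points were not, dotted lines mark 2-fold and the dashed line is the median of all genes (0.25, 0.11 and -0.11). H2-Aa, H2-Ab1, H2-Eb1, Cd74 and Ciita lie between -1.31 and -0.78 at 1 dpi and between -0.45 and 0.02 at 3 dpi against Ctrl, while H2-DMa and H2-Ob lie further below 0 at 3 dpi than at 1 dpi; Ciita turns to -0.12 at 3 dpi, and H2-DMb1 and H2-Oa turn to -0.22 and -0.17 at 1 dpi, with scaling to the array median.

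Ciita encodes the class II transactivator, which binds no DNA itself. Its brightest probe stood at 0.59, 0.38 and 0.39 on the Ctrl arrays, -0.64, -0.65 and -0.67 at 1 dpi, and 0.50, 0.46 and 0.46 at 3 dpi. The 1 dpi arrays were about 1 unit below the rest, and the 3 dpi arrays lay inside the range of the Ctrl arrays. Ciita fell by 1.11 at 1 dpi (SE 0.07, 95% CI -1.27 to -0.94, limma adjusted p = 1.7e-05), to 46.5% of Ctrl. From 1 to 3 dpi it rose by 1.13 (SE 0.07, 95% CI 0.96 to 1.29, limma adjusted p = 3.4e-05), to 218% of its 1 dpi level. As the mean of its 4 probes these values were -0.38 and 0.37. At 3 dpi the difference from Ctrl was 0.02 (95% CI -0.14 to 0.19, adjusted p = 0.83), -0.12 with scaling to the array median and -0.17 in the deposited log2 table.

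The 4 Ciita probes did not give 1 answer. A_55_P2741198, which lies in the same stretch of chromosome 16 (mm9 chr16:10525904-10525963) as the brightest probe A_66_P119948 (chr16:10526458-10526517), had levels of -3.94, -3.98 and -4.08 on the Ctrl arrays, -4.92, -4.68 and -5.09 at 1 dpi, and -4.15, -4.14 and -3.78 at 3 dpi. It showed the same fall and return in its array values, with log2 fold changes of -0.90 at 1 dpi (adjusted p = 0.0011) and 0.87 between the time points (adjusted p = 0.0016), just under 2-fold. A_55_P2035003 (chr16:10492271-10492330) gave -0.09 at 1 dpi (adjusted p = 0.61) with overlapping arrays. A_55_P2736700 (chr16:10512788-10512847) gave 0.57 (adjusted p = 0.21) and was well above background on 6 of 9 arrays, 1 of them at 1 dpi. The files pair these last probes with other transcript records than the first pair. Averaged over all 4 probes, neither call of Ciita was kept.

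**Figure D3:**
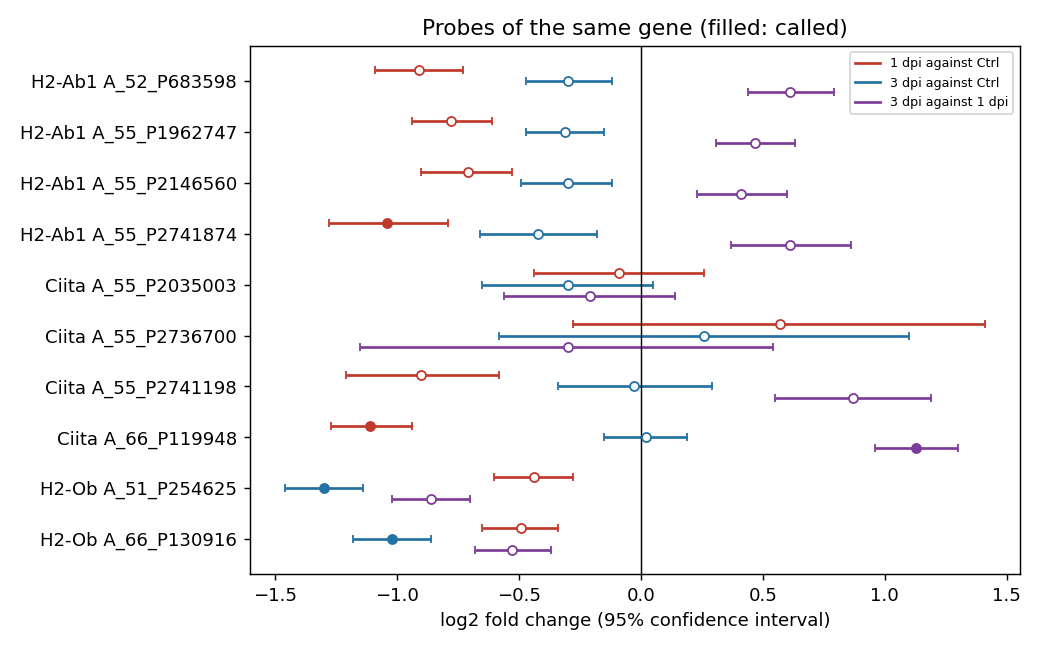
Log2 fold change with 95% confidence interval for every kept probe of H2-Ab1, Ciita and H2-Ob in the 3 comparisons; filled points were called. The 4 H2-Ab1 probes and both H2-Ob probes share their directions, while of the 4 Ciita probes A_66_P119948 (-1.11) and A_55_P2741198 (-0.90) are lower at 1 dpi and A_55_P2035003 (-0.09) and A_55_P2736700 (0.57) have intervals that include 0.

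Set side by side, the genes had unlike values at the later time. As percent of Ctrl at 1 and then 3 dpi, H2-Aa was at 40.3% and 77.0%, H2-Ab1 at 58.4% and 80.9%, H2-Eb1 at 49.5% and 73.2%, Cd74 at 47.5% and 86.6%, and Ciita at 46.5% and 101%. For the editors the same pairs were 84.2% and 66.5% for H2-DMa, 109% and 105% for H2-DMb1, 42.3% and 35.7% for H2-DMb2, 113% and 72.8% for H2-Oa, and 71.0% and 49.3% for H2-Ob. The tested differences between 3 and 1 dpi were positive with adjusted p under 0.05 for H2-Aa, H2-Ab1, H2-Eb1, Cd74 and Ciita, and negative with adjusted p under 0.05 for H2-DMa, H2-Oa and H2-Ob. With scaling to the array median these last 3 had values of -0.14, -0.44 and -0.33, with adjusted p of 0.52, 0.052 and 0.12.

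Among other genes of the pathway, 35 of 36 listed were tested. At 1 dpi 7 rose and 2 fell, at 3 dpi 9 rose and 1 fell, and between the time points 2 rose and 2 fell, with medians of 0.12, 0.16 and 0.24. The shares of the whole array that passed as higher and as lower were 12.3% and 2.87% at 1 dpi, 6.98% and 1.82% at 3 dpi against Ctrl, and 3.97% and 4.82% between the time points. The counts at 1 dpi were 5 higher and 3 lower under quantile normalization, 6 and 2 with normexp, 5 and 4 in the deposited log2 table, and 3 and 5, with more lower than higher, when scaled to the array median. With quantile normalization and with scaling to the array median the 1 dpi median was -0.02 and -0.22, and in that table -0.06. The inputs to class II transcription were split. Irf1, an interferon-induced activator that acts on a Ciita promoter, stood at 3.49, 3.41 and 3.34 on the Ctrl arrays, 4.89, 4.93 and 4.86 at 1 dpi, and 3.38, 3.23 and 3.29 at 3 dpi. Its 1 dpi arrays stood far above the other groups, which overlapped. Irf1 rose by 1.48 at 1 dpi (SE 0.07, limma adjusted p = 3.5e-06) and fell by 1.59 from 1 to 3 dpi (adjusted p = 8.7e-06).

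Ifng, which encodes interferon gamma, the best known inducer of Ciita outside professional antigen-presenting cells, had levels of -2.72, -2.90 and -2.89 on the Ctrl arrays, -1.48, -1.46 and -1.67 at 1 dpi, and -0.55, -0.74 and -0.60 at 3 dpi. Each later group lay above the one before. Ifng rose by 1.30 at 1 dpi (limma adjusted p = 2.5e-05) and by 2.21 at 3 dpi against Ctrl (adjusted p = 1.7e-06), with 0.96 and no call at 1 dpi when scaled to the array median.

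Irf4, a lymphoid transcription factor, stood at -0.68, -0.82 and -0.76 on the Ctrl arrays, -3.11, -3.25 and -3.25 at 1 dpi, and -2.55, -2.73 and -2.81 at 3 dpi. Every irradiated array was lower than every Ctrl array. It fell by 2.45 at 1 dpi (SE 0.09, limma adjusted p = 1.2e-06) and by 1.94 at 3 dpi against Ctrl (adjusted p = 2.7e-06). Nfya, a subunit of the Y box factor NF-Y, had levels of 1.81, 1.56 and 1.61 on the Ctrl arrays, 0.20, 0.54 and 0.69 at 1 dpi, and 0.91, 1.33 and 1.4 at 3 dpi. The 1 dpi arrays were the lowest without overlap. Nfya fell by 1.19 at 1 dpi (SE 0.17, limma adjusted p = 0.00083), but its other tested probe (A_55_P2716411) gave 0.18 (adjusted p = 0.61), and the deposited log2 table, on a probe not above background, gave -0.25. Prdm1, a repressor of Ciita in plasma cells, rose by 1.20 at 3 dpi against Ctrl (limma adjusted p = 4.2e-05; 0.96 and not called with normexp).

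Some genes of endolysosomal processing rose. Of 14 tested, 4 rose and 0 fell at 1 dpi, 6 rose and 0 fell at 3 dpi against Ctrl, and 1 rose and 0 fell between the time points. In the same order, 12.3%, 6.98% and 3.97% of all genes were called higher and 2.87%, 1.82% and 4.82% lower. At an unadjusted p under 0.05, limma gave 2, 0 and 2 lower in the same order. The count at 1 dpi was 2 higher with quantile normalization and with scaling to the array median. The median of the list at 1 dpi, 0.33 as reported, was 0.28 with quantile normalization and -0.02 with scaling to the array median. Lgmn encodes the asparagine endopeptidase legumain, for which a role in invariant chain cleavage has been proposed. It stood at 2.09, 2.0 and 1.97 on the Ctrl arrays, 4.11, 4.05 and 4.09 at 1 dpi, and 4.84, 4.74 and 4.71 at 3 dpi. The groups were far apart in the opposite order to H2-Ob. Lgmn rose by 2.07 at 1 dpi (SE 0.06, limma adjusted p = 6.4e-07) and by 2.74 at 3 dpi against Ctrl (adjusted p = 2.1e-07).

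Ctss, cathepsin S, the protease that trims the invariant chain in antigen-presenting cells, had levels of 4.58, 4.40 and 4.49 on the Ctrl arrays, 5.57, 5.55 and 5.55 at 1 dpi, and 6.15, 6.27 and 6.23 at 3 dpi. Its groups were also fully apart. Ctss rose by 1.07 at 1 dpi (limma adjusted p = 1.4e-05) and by 1.73 at 3 dpi against Ctrl (adjusted p = 1.3e-06). The 1 dpi call was lost with quantile normalization (0.73), scaling to the array median (0.73), normexp (0.98) and in the deposited log2 table (0.72). The lysosomal proteases Ctsb and Ctsd rose by 1.46 and 1.23 at 1 dpi and by 1.47 and 1.12 at 3 dpi against Ctrl. Ctsd was not called at 1 dpi with quantile normalization (0.85), scaling to the array median (0.89) or in the deposited log2 table (0.85). At 3 dpi it was not called with scaling to the array median (0.98). Ctsl, cathepsin L, rose by 1.77 at 3 dpi against Ctrl (adjusted p = 4.6e-07), while its other tested probe (A_66_P130532) gave -0.10 (adjusted p = 0.55). Ifi30, the lysosomal thiol reductase GILT, stood at 1.13, 1.02 and 1.02 on the Ctrl arrays, 1.18, 1.15 and 1.21 at 1 dpi, and 2.29, 2.44 and 2.42 at 3 dpi. Only its 3 dpi arrays stood clearly apart among these 9, and it rose by 1.33 at 3 dpi against Ctrl and by 1.21 from 1 dpi (limma adjusted p = 4.4e-06 and 1.8e-05).

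H2-Eb2, a class II beta chain gene outside the 10, was read by 1 tested probe. That probe (A_55_P2004761) stood at -2.95, -2.25 and -2.23 on the Ctrl arrays, -1.71, -1.55 and -1.60 at 1 dpi, and -0.21, -0.46 and -0.64 at 3 dpi. The groups were apart, and it rose by 2.04 at 3 dpi against Ctrl (SE 0.20, limma adjusted p = 0.00018) and by 1.18 from 1 dpi (adjusted p = 0.0026). The other probe (A_52_P97751) was well above background on 3 of 9 arrays and was left out of the fit. The deposited log2 table rests on that probe and has -1.78 at 3 dpi against Ctrl and -0.75 from 1 to 3 dpi, and with signal this close to background these values give no direction for the gene.

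**Figure D4:**
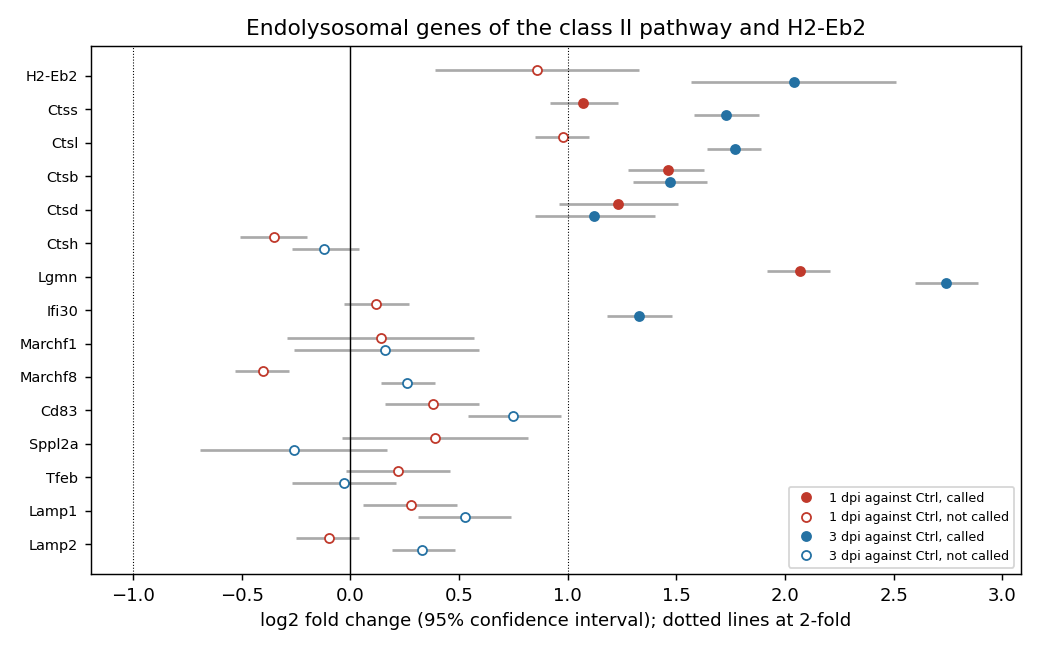
Log2 fold change with 95% confidence interval for the 14 tested genes of endolysosomal processing and for H2-Eb2, at 1 dpi (red) and 3 dpi (blue) against Ctrl; filled points were called and dotted lines mark 2-fold. Lgmn lies at 2.07 and 2.74, and Ctss at 1.07 (0.73 with quantile normalization) and 1.73.

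Markers of other bone marrow cells moved between the groups, and these values stand beside the class II results because several of the cells carry class II molecules. Of 12 B cell markers, 9 fell at 1 dpi and 10 at 3 dpi against Ctrl, with medians of -2.18 and -1.92, and Ighm was listed but not matched on the array. The counts were 7 and 8 with normexp and 11 and 11 in the deposited log2 table, where the medians were -3.69 and -3.62. Their summed level was 29.2, 27.9 and 28.7 on the Ctrl arrays, 7.81, 7.56 and 7.77 at 1 dpi, and 7.30, 6.65 and 6.86 at 3 dpi, with Cd79b the largest term. From 1 to 3 dpi, 2 B cell markers rose (Ebf1 by 1.23 and Vpreb3 by 1.46), 1 fell (Blk, by 1.01) and the median was -0.12, but 0.04 with quantile normalization, 0.08 when scaled to the array median and 0.21 in the deposited log2 table. Of these calls, Blk was lost with quantile normalization (-0.78), scaling to the array median (-0.81), normexp (-0.88) and in the deposited log2 table (-0.78). Ebf1 was lost with normexp (0.58) and in the deposited log2 table (0.60). The B cell sum was low at both irradiated times, as were the array values of H2-DMb2. H2-Aa, H2-Ab1, H2-Eb1, Cd74 and Ciita were lowest at 1 dpi. Single B cell markers differed, with group means of Ebf1 and Vpreb3 lowest at 1 dpi and those of Cd79b and Blk lowest at 3 dpi.

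Of 11 dendritic cell markers tested, 2 rose and 3 fell at 1 dpi, 1 rose and 2 fell at 3 dpi against Ctrl, and 2 rose between the time points. At 1 dpi the counts were 1 higher and 5 lower with quantile normalization, 0 and 5 with scaling to the array median, and 1 and 6 in the deposited log2 table, where the median was -1.07 in place of 0.05. Xcr1, also listed, was well above background on 0 arrays. Cd209a, a marker of conventional dendritic cells, fell by 1.97 at 1 dpi (limma adjusted p = 6.5e-06) and rose by 1.59 from 1 to 3 dpi (adjusted p = 3.9e-05). Flt3 fell by 1.65 and 2.14 and Ccr7 by 1.96 and 1.85 at 1 and 3 dpi against Ctrl. Clec10a rose by 1.98 at 3 dpi against Ctrl and by 1.93 from 1 to 3 dpi. Bst2 rose by 1.34 at 1 dpi, but by 1.0, with no call, with scaling to the array median. The summed level was 27.8, 41.4 and 42.3 on the Ctrl arrays, 69.6, 65.7 and 64.3 at 1 dpi, and 47.4, 44.3 and 43.1 at 3 dpi. This sum and the mean log2 level take in all 12 listed markers, including Xcr1. The mean, which thus also carries a gene not above background, ran otherwise. It was -0.94, -0.81 and -0.86 on the Ctrl arrays, -1.06, -1.04 and -1.0 at 1 dpi, and -0.80, -0.99 and -1.0 at 3 dpi. In the sum, the largest term is Siglech, a plasmacytoid marker that rose by 1.08 at 1 dpi but by 0.70, with no call, without Ctrl replicate 1 and by 0.77, also with no call, with quantile normalization, and for which the row of the deposited log2 table, resting on another probe, gave -2.08.

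Of 14 macrophage and monocyte markers, 4 rose and 1 fell at 1 dpi, 9 rose at 3 dpi against Ctrl and 6 rose between the time points. With scaling to the array median the last counts were 8 and 8, and the median at 1 dpi was 0.05 in place of 0.40. Their sum, with Ly6c2 the largest term, was 204, 181 and 179 on the Ctrl arrays, 287, 274 and 274 at 1 dpi, and 282, 273 and 276 at 3 dpi. Their mean log2 level was 1.66, 1.58 and 1.52 on the Ctrl arrays, 1.99, 1.93 and 2.01 at 1 dpi, and 3.05, 3.07 and 3.06 at 3 dpi. Cd163 fell by 2.07 at 1 dpi and rose by 2.81 from 1 to 3 dpi, and Fcgr1 rose by 2.48 and 2.71 at 1 and 3 dpi against Ctrl. Of 8 T and NK cell markers 1, 2 and 1 rose in the 3 comparisons. The count at 1 dpi was near the share of all genes called higher there (12.3%). Sums of the 8 were 30.2, 31.7 and 30.2 on the Ctrl arrays, 43.6, 40.8 and 41.0 at 1 dpi, and 36.1, 32.5 and 31.9 at 3 dpi (largest term Nkg7). The single call at 1 dpi, Ncr1 (1.02), was lost with quantile normalization (0.56), scaling to the array median (0.68), normexp (0.88) and without Ctrl replicate 1 (0.91), and in the deposited log2 table (0.56). Other genes of this list passed at 1 dpi under some of these, so that its counts were 1 higher and 0 lower with quantile normalization, 2 and 0 in the deposited log2 table, and 0 and 1 when scaled to the array median. Of 6 endothelial markers 2, 4 and 1 rose, with sums of 2.51, 2.23 and 2.30, then 4.08, 3.75 and 3.85, then 8.40, 7.03 and 7.28 (largest term Stab2), and at 1 dpi there were 1 higher and 1 lower when scaled to the array median. The part of any of these cell types in the class II values was not tested.

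**Figure D5:**
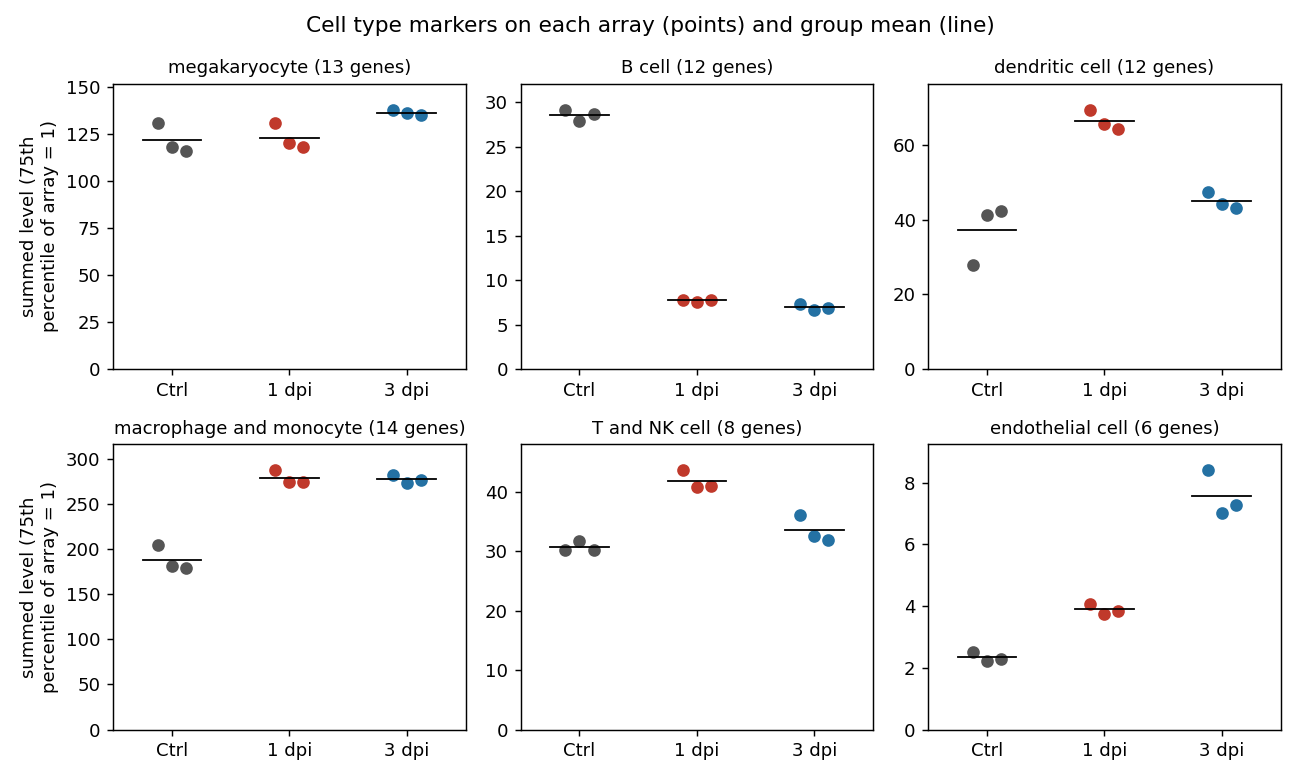
Summed level of cell type markers on each array (points) with the group mean (line), in units where the 75th percentile of an array is 1; axes start at 0. The B cell sum lies between 27.9 and 29.2 on the Ctrl arrays and between 6.65 and 7.81 on the 6 irradiated arrays, while the megakaryocyte sum lies between 116 and 138 on all 9.

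The genes most like the classical chains and Cd74 over the 9 arrays were found by Pearson r with the mean standardized level of H2-Aa, H2-Ab1, H2-Eb1 and Cd74, among 23997 genes well above background on all arrays. They were NAP093863-001, a transcript listed without a gene symbol (r = 0.9984), Khdrbs1 (0.9968), Hps3, Zfp472 and Mettl4 (0.9938 each), Dhx32 and Knl1 (0.9937 each) and Klrb1f (0.9934). This is a description over 9 arrays in 3 groups. In that order, their log2 fold changes at 1 dpi against Ctrl were -0.84, -0.46, -0.83, -0.85, -1.24, -0.67, -0.75 and -1.28. Of the other class II genes, Ciita had r = 0.94, H2-DMb2 0.63, H2-Ob 0.32, H2-DMa 0.24, H2-Oa -0.40 and H2-DMb1 -0.44 with the same mean. An r like that of Ciita was common, since Creb1 (0.9448) ranked only 972 and Ccr9 (0.9372) only 1145. Over all 23997 ranked genes the median r was -0.34. Markers of cell types were spread widely by the same r, with medians of 0.18 over 11 dendritic cell markers (-0.95 to 0.98), 0.71 over 11 B cell markers (-0.82 to 0.96) and 0.20 over 13 megakaryocyte markers (-0.92 to 0.91). The medians were 0 over 14 macrophage and monocyte markers (-0.89 to 0.79), -0.61 over 8 T and NK cell markers (-0.93 to 0.78) and -0.34 over 6 endothelial markers (-0.66 to 0.91).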

How the data were processed

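RNA of mMKs was measured on 9 arrays of 3 groups (Ctrl, 1 dpi and 3 dpi). Per the file headers, the authors deposited spot intensity from 1-colour (Cy3) Agilent arrays read with Agilent Feature Extraction 10.7.1.1, background-subtracted within each array, whereas the published methods describe an Affymetrix mouse chip; the files were analysed as what they are. The authors also deposited a log2 table with 27275 rows, 1 per gene, whose column medians are 5.84, 5.84, 5.83, 5.80, 5.80, 5.79, 5.86, 5.86 and 5.87 (Ctrl, 1 dpi, 3 dpi, replicates 1 to 3); its processing is not given in the sources used here, but differences between arrays in the rows of the 10 genes matched quantile-normalized log2 processed intensity of 1 probe to within 0.01, and 4 of the 10 rows rest on a probe other than the brightest, those of H2-DMb1 and H2-Ob on probes well above background on 0 arrays. The rest of its rows were not checked this way, and the constant added to its values and the rule that chose its probes stay unknown.

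From each array's 62976 spots, 3671 control spots were left out. Log2 processed intensity had the array's 75th percentile over the 59305 remaining spots subtracted, outlier spots were dropped (20 probes lost), and spots of a probe were averaged. Of 56605 probes, 32994 were named through RefSeq accessions (GRCm38.p6 table) and 23611 kept the file's name. A probe stayed in when some group had it well above background in each of its 3 replicates (44300 probes), and the brightest stood for its gene, giving 29410 genes; of 19 probes of the 10 genes, 17 were kept. No spot was saturated. The number of arrays limits the precision.

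All genes were fitted with limma 3.58.1 (lmFit, eBayes, 1 mean per group) in R 4.3.3 with jsonlite 2.0.0 and data.table (version 1.17.8), and p-values were adjusted by Benjamini-Hochberg over all genes. With 3 arrays per group, the smallest p an exact two-sided test can reach is 0.1. Promoter matches and figures used Python 3.11.15, pandas 2.3.3 and matplotlib 3.10.9. Scripts were tested on simulated data. Alternatives were quantile normalization, scaling to the array median, normexp (offset 50) on mean and background signals, the deposited log2 table, other filters and probe rules, no minimum fold, an intensity trend, the methods' two-tailed t-test, replicate and slide blocks, and leaving out each array.

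All 10 genes are named in every comparison. Pathway genes were counted by list and named where called, up to 12 by size (1 of those counted is not reported here by name), and the 8 genes most like the chains and Cd74 were named. The gene set, lists and motifs were chosen with earlier results of these data known.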

Additional observations from a re-analysis of the deposited data

Results flagged for a closer look

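Ciita was at a different distance from Ctrl at the 2 times after irradiation. Its log2 fold change was -1.11 at 1 dpi and 0.02 at 3 dpi against the same Ctrl arrays, and the test of the difference itself, 3 dpi against 1 dpi, gave 1.13 (limma adjusted p = 3.4e-05), with all 3 arrays at 3 dpi above all 3 at 1 dpi. The value rests on the brightest of 4 probes and was 0.37 as the mean of the 4.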

How the results depend on the processing

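The alternatives changed no called class II gene to the opposite sign, and the sign changes met were among values that were not called (H2-DMb1, H2-Oa at 1 dpi and Ciita at 3 dpi against Ctrl). Over all settings, 602 values of single genes in single comparisons kept their sign and their side of the threshold, 55 newly passed the threshold, 13 no longer passed it and 20 changed sign. The 2-fold rule decided most counts. Without a minimum fold, 8 of 10 genes were lower at 1 dpi, 7 lower at 3 dpi against Ctrl, and 5 higher and 3 lower at 3 dpi against 1 dpi. The methods' t-test at an unadjusted p under 0.05 gave 2 higher and 8 lower at 1 dpi, 0 higher and 7 lower at 3 dpi against Ctrl, and 5 higher and 3 lower between the times, and after Benjamini-Hochberg 1 higher and 8 lower, 0 higher and 6 lower, and 5 higher and 3 lower.

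At 1 dpi H2-Ab1 was also called lower with quantile normalization (-1.01), with scaling to the array median (-1.12) and relative to the median of all genes (-1.02). It was called in the deposited log2 table too (-1.01, on another probe). With normexp, H2-DMb2 was not called at 1 dpi (-0.26). At 3 dpi against Ctrl the count of lower genes, 2 as reported, was 1 with quantile normalization, 0 with normexp, 1 with the deposited log2 table and 1 with the slide as a block. In the log2 table the row of H2-Ob (-1.18, adjusted p = 0.088) rests on a probe not well above background. Between the times the count of higher genes, 1 as reported, was 3 with scaling to the array median, 0 with the mean of all kept probes of a gene, and 2 for changes relative to the median of all genes, an alternative chosen after seeing the data. Leaving out each array in turn gave 0 to 0 higher and 4 to 5 lower at 1 dpi, 0 to 0 higher and 1 to 2 lower at 3 dpi against Ctrl (1 without Ctrl replicate 1 and 1 without 3 dpi replicate 3), and 1 to 2 higher (2 without 3 dpi replicate 1) and 0 to 0 lower between the times. Since Ctrl replicate 1 is the only array of its slide, the slide block equals leaving it out. The whole-array counts of called genes were 4468, 2587 and 2588, and 2443, 1294 and 1351 with normexp. The causes of these shifts were not tested.

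Replicate numbers did not pair the arrays: deviations from the group means correlated at -0.11 to 0.13 over 9 pairs of like number and -0.15 to 0.10 over 18 other pairs. With the replicate block the counts were 0 higher and 5 lower, 0 higher and 2 lower, and 1 higher and 0 lower. Signal close to background limits H2-DMb2, the second H2-Ob probe and 3 of the 4 Ciita probes.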
